A study of Mus musculus with 6 samples.

Results

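Surface Toll-like receptors are the sensors with which microglia meet bacterial lipids and proteins at the plasma membrane. The genes described here are Tlr1, Tlr2, Tlr4, Tlr5 and Tlr6, the co-receptor genes Cd14 and Ly96, and the adaptor gene Myd88, 8 of the 16179 genes in the deposited table. They were chosen by their place in this receptor family, with their BODIPY-low and BODIPY-high values in these same libraries already known. Those values are therefore given below as a description, with no p-value and no support drawn from them. All 8 were in the table and all 8 passed the filter on low values, a mean of at least 10 normalised reads.

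RNA was sequenced from microglia of the hippocampus of male mice of strain B6.129S4(FVB)-Grntm1.1Far/Mmja, progranulin (Grn) knockouts aged 10 months. BODIPY, a dye for neutral lipid, was used to sort live CD11b-positive, CD45-low cells, about 10000 per library, by lipid droplet content into BODIPY-low and BODIPY-high fractions, whose libraries are called low and high below. Each of the 2 groups has 3 libraries, each from the pooled hippocampi of 2 mice. Every library lacks progranulin by genotype, wild-type libraries were not analysed here, and no label ties a low to a high library beyond a shared number, so each p-value reflects spread among these 6 libraries alone.

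The libraries held 24982215 to 34899425 recovered reads. Grn, the targeted gene, had between 416 and 990.1 normalised reads in low and between 468 and 1614 in high libraries, and where along the gene these reads lie was not analysed here. All 10 microglia markers looked at were present, and together they took 6.03% to 6.65% of reads in low and 5.35% to 5.64% in high libraries. Of the 10, limma called Cx3cr1 and Gpr34 lower (adjusted p = 0.0399 and 0.00623), beside 3.52% of all tested genes called lower. Cx3cr1 held without high replicate 1 but was lost in the other 5 fits with 1 library left out (up to 0.173), and both were lost with libraries scaled to these markers (0.159 and 0.0608). Both genes are among the markers that set that scale, which shrinks their differences by construction. Choroid plexus markers took 0.0137% to 0.0659% and 0.541% to 0.965%, and neutrophil markers 0.109% to 0.279% and 7.39e-04% to 0.00816%, so those lists stood apart between the groups without overlap. In bulk libraries fewer cells of a type and less RNA per cell cannot be told apart.

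Toll-like receptors bind their ligand outside the cell as dimers and bring their inner domains together to recruit adaptors. TLR2 pairs with TLR1 or with TLR6 and senses bacterial lipopeptides, TLR5 senses flagellin, and TLR4 senses lipopolysaccharide, which CD14 hands to it and to MD-2, the product of Ly96. MyD88 is the adaptor that all of these receptors use to start signalling towards NF-kB and the MAP kinases, and TLR4 can also signal through TRIF from the endosome. Microglia are the main brain cells that carry these receptors.

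The promoter windows of the TLR2 dimer partners, which were lower together in high libraries, and of Myd88, which was not, are shown first. The sequences are those of RefSeq on GRCm38.p6, from 250 bases before to 50 after a start site, read 5′ to 3′ on the gene's own strand, which is the minus strand for these 4 genes. Tlr2 lies at chr3:83841559-83841858, Tlr1 at chr5:64933509-64933808, Tlr6 at chr5:64959999-64960298 and Myd88 at chr9:119339969-119340268. Capitals mark matches to the PU.1 core GAGGAA, the AP-1 site TGANTCA or the NF-kB consensus, searched on both strands. RefSeq lists 2 windows each for Tlr1 and Tlr6, and the outermost is shown. The Myd88 window lies wholly inside the GENCODE span of the gene (119335934 to 119341411), and the start used for Tlr2 lies inside its GENCODE span. Motif positions therefore hold for these RefSeq starts only.
Tlr2: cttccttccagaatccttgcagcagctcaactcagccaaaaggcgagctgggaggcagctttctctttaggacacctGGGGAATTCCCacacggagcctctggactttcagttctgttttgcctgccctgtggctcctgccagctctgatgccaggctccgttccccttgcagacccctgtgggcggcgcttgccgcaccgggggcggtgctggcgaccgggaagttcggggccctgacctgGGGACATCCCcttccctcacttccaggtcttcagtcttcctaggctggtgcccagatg
Tlr1: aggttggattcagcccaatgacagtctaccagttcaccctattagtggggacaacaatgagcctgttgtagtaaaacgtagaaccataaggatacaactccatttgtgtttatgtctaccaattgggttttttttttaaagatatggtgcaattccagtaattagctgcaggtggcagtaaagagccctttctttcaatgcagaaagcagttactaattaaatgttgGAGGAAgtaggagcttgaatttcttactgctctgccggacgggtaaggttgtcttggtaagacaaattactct
Tlr6: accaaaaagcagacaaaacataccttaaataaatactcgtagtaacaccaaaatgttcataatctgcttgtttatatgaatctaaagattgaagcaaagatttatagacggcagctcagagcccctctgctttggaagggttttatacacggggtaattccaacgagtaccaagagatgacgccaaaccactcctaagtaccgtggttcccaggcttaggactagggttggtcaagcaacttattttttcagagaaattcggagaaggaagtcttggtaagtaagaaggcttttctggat
Myd88: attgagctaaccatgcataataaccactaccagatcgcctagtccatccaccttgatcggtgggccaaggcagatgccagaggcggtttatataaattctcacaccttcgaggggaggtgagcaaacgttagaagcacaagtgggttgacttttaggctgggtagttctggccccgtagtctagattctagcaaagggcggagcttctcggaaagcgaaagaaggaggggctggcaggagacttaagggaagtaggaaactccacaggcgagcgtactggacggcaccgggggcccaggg

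The Tlr2 window held 3 matches to the NF-kB consensus, starting at positions -173, -172 and -8 from the start site, the first pair overlapping each other. The Tlr1 window held 1 PU.1 core, at position -23, and the windows of Tlr6 and Myd88 held none of the 3 motifs. Among all 32851 windows of this length, 8.46% held an NF-kB consensus, 28.3% a PU.1 core and 7.81% an AP-1 site. The windows also differed in base composition, with a GC content of 62% in Tlr2, 54% in Myd88 and 40.3% in both Tlr1 and Tlr6. A match is a description of letters and says nothing of binding in these cells. The Tlr5 window, with a GC content of 57.3%, held none of the 3 motifs and is not printed, and windows for Tlr4, Ly96 and Cd14 are not shown.

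Tlr2, the shared partner of the lipopeptide receptors (chromosome 3, 83836272 to 83841767 on GRCm38), had 13696, 12181 and 13877 normalised reads in low replicates 1, 2 and 3. It had 8720.5, 9448 and 9790.1 in high replicates 1, 2 and 3. The groups did not overlap. The high mean was 70.3% of the low mean, a log2 difference of -0.51 (SE 0.09, n = 3 each).

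Tlr1, the partner for triacylated lipopeptides (chromosome 5, 64924679 to 64933563), had 2756, 2623 and 2804 normalised reads in low and 2366, 2053 and 2063 in high libraries. All high libraries lay below all low ones, with replicate 1 the highest of the former, and the log2 difference was -0.34 (SE 0.10). Tlr6, the partner for diacylated lipopeptides (chromosome 5, 64952031 to 64960097), had 1777, 2376 and 2067 in low and 1329, 1227 and 1519.9 in high libraries. Here too the groups were apart, but low replicate 1 lay near the high range, and the log2 difference was -0.60 (SE 0.13).

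Tlr1 and Tlr6 are neighbouring paralogs, and 74.1% of the aligned bases of their coding parts are identical. Stretches of 100 bases found in both made up 7.89% of those in Tlr1 transcripts and 7.09% of those in Tlr6 transcripts, in 3 coding runs of 229, 208 and 119 bases. The longest run is printed because a read that falls wholly inside it cannot be given to either gene.
Shared by Tlr1 and Tlr6 (GENCODE M21 transcripts): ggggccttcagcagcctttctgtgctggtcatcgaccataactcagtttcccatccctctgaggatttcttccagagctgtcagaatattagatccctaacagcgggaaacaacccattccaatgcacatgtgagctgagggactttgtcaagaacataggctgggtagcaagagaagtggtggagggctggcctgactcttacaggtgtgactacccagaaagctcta

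How reads in these runs were counted is not given in the sources used here. No stretch of 100 bases in the transcripts of the other 6 genes was found, read on the same strand, in a transcript of any other gene. Sequence on the opposite strand was not searched, and there Myd88 shares exon bases with Acaa1a, as given below.

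Tlr4, the lipopolysaccharide receptor (chromosome 4, 66827584 to 66930284), had 11879, 10066 and 10079 normalised reads in low and 9143, 6322 and 6906 in high libraries. Replicate 1 was the highest library of each group, and the groups did not overlap. The high mean was 69.9% of the low mean, a log2 difference of -0.53 (SE 0.13). Cd14, whose product passes lipopolysaccharide to TLR4 and also assists TLR2 (chromosome 18, 36725067 to 36726798), had 14996, 13329 and 13899.5 in low and 10596, 11188 and 10981 in high libraries. Among the 8 genes, the high libraries lay closest together in Cd14, with a coefficient of variation of 2.75%, and its log2 difference was -0.36 (SE 0.08).

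Ly96, which encodes the lipopolysaccharide-binding partner of TLR4 (chromosome 1, 16688051 to 16709611), had 1165, 801 and 879.7 normalised reads in low and 749.9, 813 and 619.7 in high libraries. The value of high replicate 2 exceeded that of low replicate 2, so the groups overlapped, and the log2 difference of -0.37 had an SE of 0.17. Tlr5, the flagellin receptor (chromosome 1, 182954788 to 182976044), had 349, 689 and 709.9 in low and 203, 453 and 311 in high libraries. The value of low replicate 1 lay inside the high range, replicate 1 was the lowest library of each group, and the log2 difference of -0.86 had an SE of 0.32. Tlr5 varied most among the 8 genes, with coefficients of variation of 34.8% and 39.0% within the groups.

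Myd88 (chromosome 9, 119335934 to 119341411) went the other way. It had 3503, 3485 and 3213 normalised reads in low and 3646, 4010.6 and 3722 in high libraries. The groups did not overlap, but the lowest high library exceeded the highest low one by a ratio of only 1.04, and the log2 difference was 0.16 (SE 0.09). Exons of Myd88 share 290 bases with those of Acaa1a, a peroxisomal thiolase gene on the other strand, and the library kits in the labels keep no strand. Acaa1a, looked at after its values were seen, had 2032, 2157 and 2241 normalised reads in low and 2532, 2839.5 and 2743 in high libraries (log2 fold change 0.34, SE 0.10, limma adjusted p = 0.0404). The call of Acaa1a was lost in 5 of 6 fits that left out 1 library (adjusted p between 0.0904 and 0.126) and held without high replicate 1. Its part in the value of Myd88 was not tested.

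**Figure D1:**
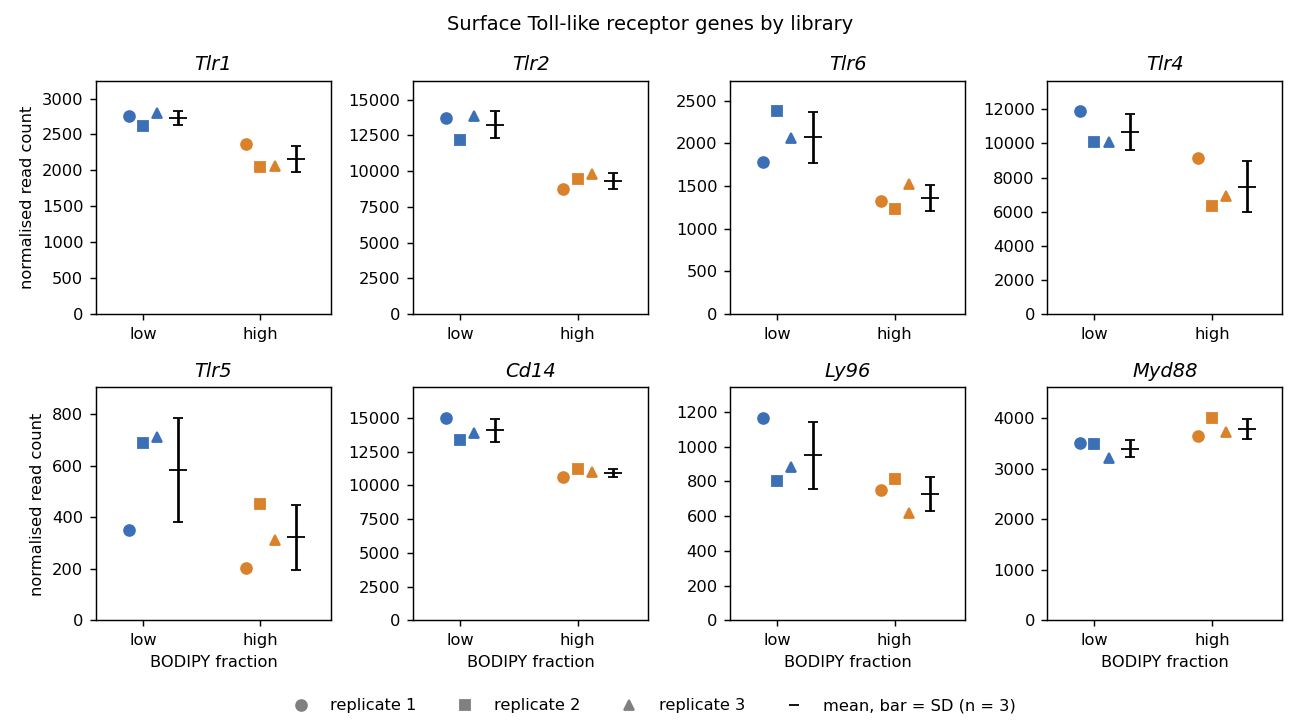
Normalised read count (linear axes from 0) of the 8 genes in each library of the BODIPY-low and BODIPY-high fractions, with the group mean and SD beside the points. Tlr1, Tlr2, Tlr6, Tlr4 and Cd14 lie lower in all BODIPY-high libraries, Tlr5 and Ly96 overlap, and Myd88 lies slightly higher.

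Across the 8 genes, 5 had all high libraries below all low ones and 1, Myd88, had them above. Among all 12821 tested genes, 13.4% were apart in the lower and 18.0% in the higher direction. At a limma adjusted p below 0.05 over all tested genes, 5 of the 8 were called lower and none higher, against a background of 3.52% called lower (451 genes) and 9.79% called higher (1255 genes). Since the 8 were picked with their values in this contrast already known, nothing is read from these counts. The 8 log2 differences ran from -0.86 to 0.16 with a median of -0.44, beside a median of -0.01 over all tested genes. With 1 library left out, 2 to 5 of the 8 were called lower, with 3 without low replicate 2, 3 without low replicate 3 and 2 without high replicate 3.

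Together the 8 genes took 0.175%, 0.165% and 0.172% of reads in low replicates 1, 2 and 3, and 0.129%, 0.126% and 0.130% in high replicates 1, 2 and 3. The ratio of the means was 0.750, and that of the summed microglia markers was 0.867. When each library was instead scaled to the geometric mean of the 10 microglia markers, the median log2 difference of all tested genes moved from -0.01 to 0.16, and the calls changed from 1255 higher and 451 lower to 2015 and 155, so that the share of higher calls went from 73.6% to 92.9%. On that scale the log2 differences were -0.33 for Tlr2, -0.43 for Tlr6, -0.35 for Tlr4, -0.19 for Cd14, -0.16 for Tlr1, -0.19 for Ly96, -0.68 for Tlr5 and 0.34 for Myd88. Relative to the median of all genes on the same scale they were -0.49 for Tlr2, -0.59 for Tlr6, -0.52 for Tlr4, -0.35 for Cd14 and 0.17 for Myd88. For Tlr1, Ly96 and Tlr5 they were -0.32, -0.36 and -0.84. The scaling shifts all genes by nearly the same amount, so these values repeat the unscaled differences by construction and test nothing. After this scaling Tlr2, Cd14 and Myd88 still did not overlap between the groups, while Tlr1, Tlr4 and Tlr6 did, and of the 8 genes 1 was called lower (Tlr2) and 1 higher (Myd88).

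**Figure D2:**
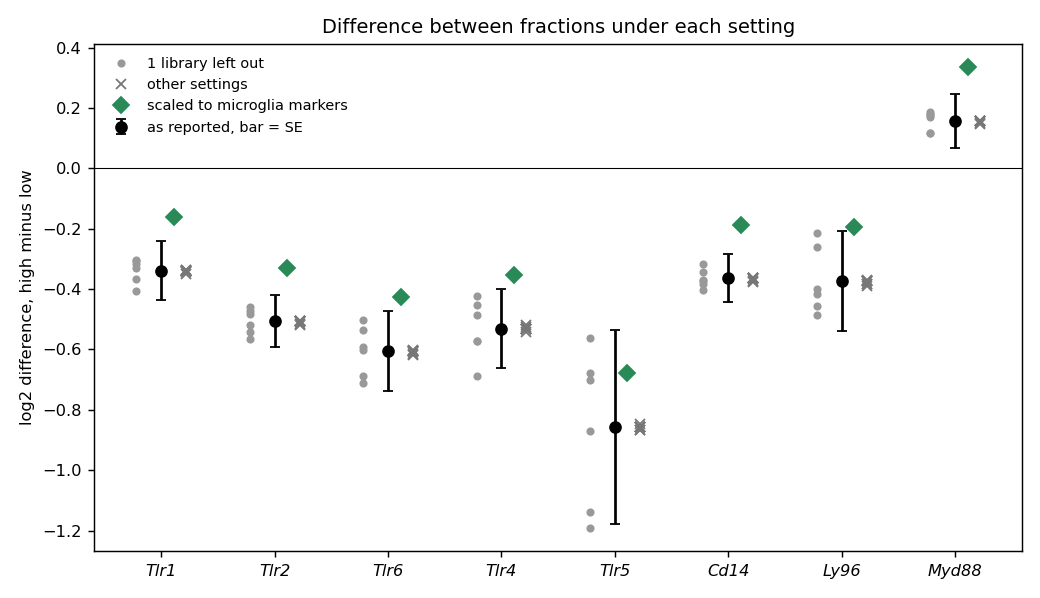
Log2 difference (BODIPY-high minus BODIPY-low, vertical axis) of each of the 8 genes as reported with its SE, with each library left out, with libraries scaled to microglia markers, and under the other settings. The sign of each gene is the same under every setting shown, some of which cannot change it, and the microglia marker scaling moves all 8 upward.

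**Figure D3:**
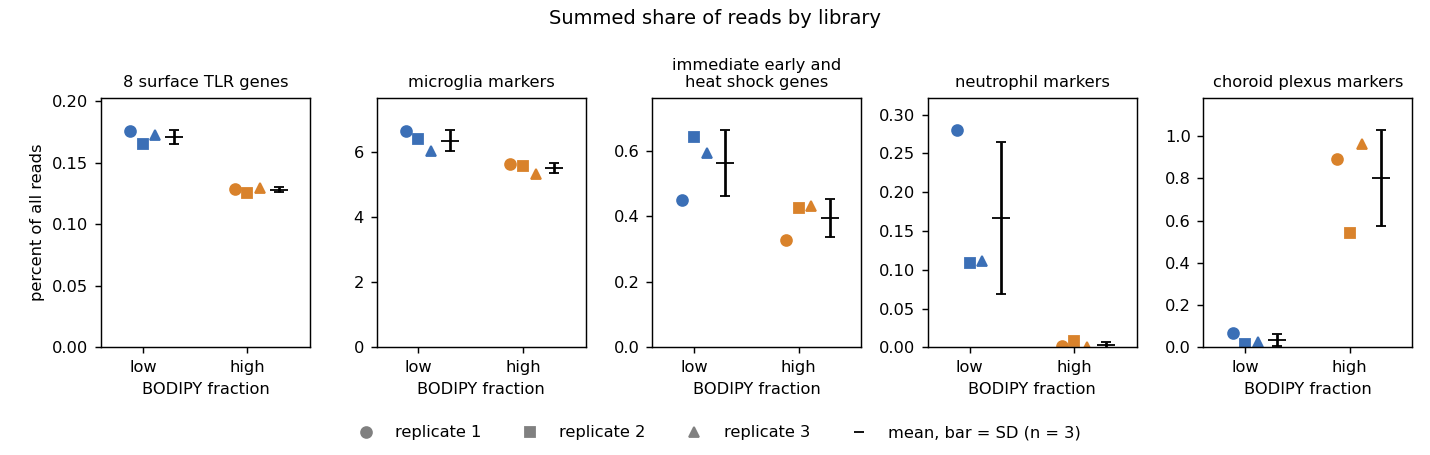
Percent of all reads taken by the 8 genes and by lists of microglia markers, immediate early and heat shock genes, neutrophil markers and choroid plexus markers in each library, with the group mean and SD. The 8 genes have means of 0.171% and 0.128% of reads, neutrophil markers are far lower and choroid plexus markers far higher in BODIPY-high libraries.

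Levels of different genes were compared per length, as RPKM (reads per kilobase of summed exons, scaled to the library's reads). On that scale Cd14 was the most abundant of the 8, at 290.5 ± 12.2 in low and 224 ± 8.12 in high libraries (SD, n = 3 each). Tlr2 came next, at 157 ± 10.3 and 109.8 ± 7.92. Tlr4 stood at 68.6 ± 5.29 and 47.6 ± 9.05 and Myd88 at 47.2 ± 1.94 and 52.2 ± 2.71. Tlr4 was above Myd88 in every low library, whereas in high libraries the ranges of the pair overlapped.

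Lower in the order came Ly96, at 33.2 ± 6.01 and 25.3 ± 3.16 RPKM, and Tlr1, at 29.2 ± 1.03 and 22.9 ± 1.65. These neighbours overlapped in both groups, so their order is not resolved. Tlr6 followed at 19.9 ± 3.20 and 12.9 ± 1.59, and Tlr5 was last at 4.37 ± 1.58 and 2.39 ± 0.931. All other neighbours in the order were apart in each group.

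Ratios within a library do not depend on how libraries were scaled. Per length, Tlr2 stood above Tlr1 by a ratio of 5.39 ± 0.203 in low and 4.82 ± 0.637 in high libraries (SD, n = 3 each), and above Tlr6 by 8.06 ± 1.61 and 8.53 ± 0.861, with overlap both times. The ratio of Cd14 to Tlr4 was 4.24 ± 0.187 and 4.83 ± 1.01, and that of Ly96 to Tlr4 was 0.481 ± 0.0505 and 0.545 ± 0.136, again with overlap. The ratio of Cd14 to Tlr2 was 1.91, 1.90 and 1.74 in low and 2.11, 2.06 and 1.95 in high libraries, apart by a small margin. Myd88 relative to Tlr2 was 0.299, 0.335 and 0.271 in low and 0.489, 0.497 and 0.445 in high libraries. Set against Tlr4, Myd88 was at 0.636, 0.747 and 0.687 in the former and at 0.860, 1.37 and 1.16 in the latter. The adaptor was thus higher relative to either receptor in all high libraries. This follows from the values above, where Tlr2 and Tlr4 were lower and Myd88 higher without overlap, and adds no support to them.

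**Figure D4:**
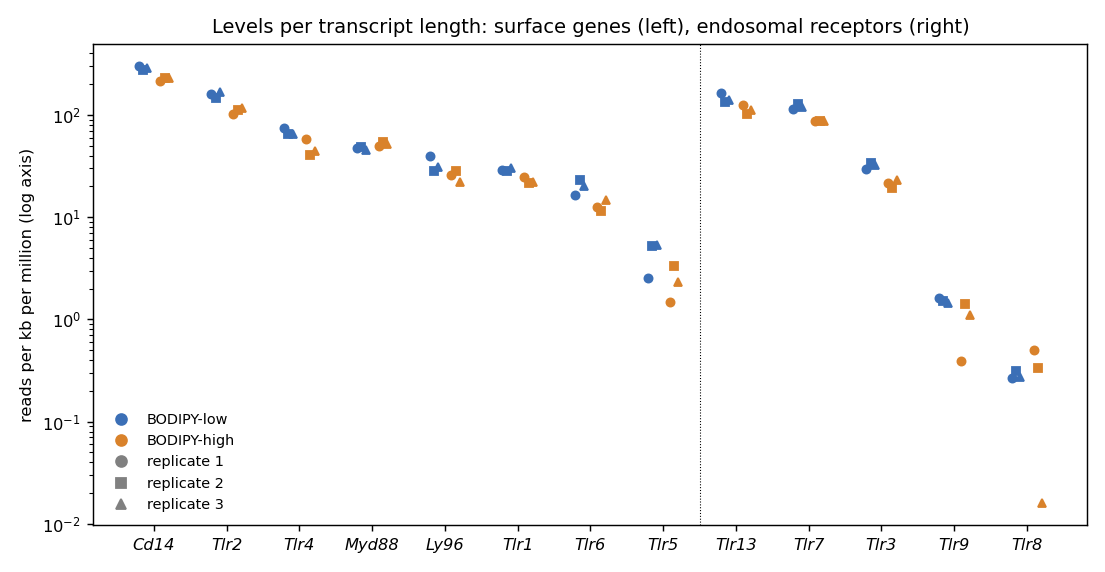
RPKM (reads per kilobase of exon, scaled to library reads, log axis) of the 8 surface genes and, right of the dotted line, of 5 endosomal Toll-like receptors in each library. Cd14 and Tlr2 lead the surface genes, Tlr5 is lowest, and Tlr13 and Tlr7 lie near Tlr2.

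The endosomal receptors, which sense nucleic acids, are the genes most like these by family. Of 6 tested (5 receptors and Unc93b1, which carries them to endosomes), 3 fell and none rose by limma, with a median log2 fold change of -0.50. The background over all tested genes was 3.52% called lower and 9.79% called higher. Normalised reads of Tlr7, a receptor for single-stranded RNA, fell from 13715 ± 547 to 10013 ± 224 (± SD, n = 3 each; log2 fold change -0.45, SE 0.08, limma adjusted p = 0.00284). Tlr3, a receptor for double-stranded RNA, fell from 4629 ± 216 to 3157 ± 265 (-0.55, limma adjusted p = 0.00313), and Tlr13, a receptor for bacterial ribosomal RNA, fell by 0.36 (limma adjusted p = 0.0483). The call of Tlr13 held without high replicate 1 but was lost in the other 5 fits with 1 library left out (adjusted p up to 0.149), with edgeR (0.0514) and with the microglia marker scaling (0.264). In all, 10 of 16 alternatives lost it, the others being a pseudocount of 0.5 (0.0507), no filter (0.0545) and a mean of at least 50 (0.0536). No difference between surface and endosomal receptors was tested, since the surface genes were picked with their values in this contrast already known.

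The genes whose centred log2 values lay nearest to those of Tlr2 over the 6 libraries were Kmt2c, a histone methyltransferase gene, 5031425E22Rik and Zfp961, at root mean square differences of 0.027, 0.037 and 0.046. For Tlr4, Zfp595 and Zeb2 are given, at 0.060 and 0.066. For Cd14 they were Tmem173, which encodes STING, Hmga2-ps1 and Coa4, at 0.025, 0.038 and 0.046. Among the 7 other genes described here, Cd14 was nearest to Tlr2, at 0.090 and rank 36 of all tested genes, and Tlr1 was nearest to Tlr4, at 0.156 and rank 190. The points share their libraries and are given as a description only.

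Other genes of the pathway came from 8 lists. Of 107 genes 94 passed the filter, of which 5 rose and 8 fell by limma, with a median log2 fold change of -0.13. Over all tested genes 9.79% were called higher and 3.52% lower, the background for this count and for each list below. These counts depend on single libraries. The rises numbered 1 without low replicate 2, 2 without low replicate 3 and 1 without high replicate 3, and the falls 5 without low replicate 3 and 5 without high replicate 3.

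Among ligands produced by the body itself, 7 of 12 were tested, 1 rose and 2 fell, with a median of -0.00. S100a8 and S100a9, which together encode calprotectin and are abundant in neutrophils, fell from means of 4758 ± 3410 to 145 ± 171 and of 6222 ± 3740 to 173 ± 214 (normalised reads ± SD, log2 fold changes by limma -5.58 and -5.85, adjusted p = 7.38e-04 and 5.59e-04). With the robust variance model they missed the threshold (adjusted p = 0.0545 and 0.0506). All 12 neutrophil markers in the table were lower in every high library, with 11 called, and both genes belong to that list. Bgn, which encodes the matrix proteoglycan biglycan, had 2 reads in low and 74 in high libraries (ratio 33.1, exact 95% interval 8.85 to 279 for counting error only). Its call (limma adjusted p = 0.0484) was lost without low replicate 2 or 3 and without high replicate 2 or 3, up to an adjusted p of 0.1999, and also with pseudocounts of 0.5 and 5 (0.0544 and 0.0539). Hmgb1, a nuclear protein that alerts receptors once released, had 5615 ± 422 and 6953 ± 679 (limma adjusted p = 0.0631).

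Of 11 accessory proteins and chaperones 10 were tested, 1 rose and 2 fell, with a median of -0.07. Lbp, whose product delivers lipopolysaccharide to CD14, had 184, 87.4 and 107 normalised reads in low and 963, 1052 and 1433 in high libraries (log2 fold change 3.23, SE 0.27, limma adjusted p = 5.14e-05). In those high libraries all 11 choroid plexus markers rose as well, by a median log2 of 4.64, and their part in the rise of Lbp was not tested. Itgam, the CD11b gene, whose product is also a partner of CD14 and was a sort marker here, fell from 61853 ± 1487 to 49233 ± 1766 (-0.33, limma adjusted p = 0.0156). Its call was lost without low replicate 2 or high replicate 3 (adjusted p = 0.0667 and 0.0803) and with the microglia marker scaling (0.228). Cd36, a scavenger receptor that assists the TLR2 and TLR6 pair, was at 139, 100.2 and 138 in low and 31.1, 30.6 and 58.0 in high libraries. It fell by 1.68 on the log2 scale (limma adjusted p = 0.0110), and missed the threshold without low replicate 3 (0.0588). Hsp90b1 and Cnpy3, the chaperones that surface receptors need to leave the endoplasmic reticulum, had log2 differences of -0.12 and 0.05 (limma adjusted p = 0.401 and 0.782).

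In the MyD88 arm of signalling all 17 genes were tested, 1 rose and none fell, with a median of -0.03 (4 had an unadjusted p below 0.05). Irak1, a kinase bound by MyD88, rose from 2622 ± 120.4 to 3381 ± 320 (normalised reads ± SD, log2 fold change 0.36, SE 0.10, limma adjusted p = 0.0345). That call was lost in 5 of 6 fits with 1 library left out (up to 0.144), and held without high replicate 2. Irak4, the first kinase of the complex, had 1003 ± 45.2 and 1013 ± 83.2, and Traf6, the ubiquitin ligase downstream, 1716 ± 226 and 1628 ± 184 (limma adjusted p = 0.962 and 0.763). In the TRIF arm limma called 0 of 10 genes, with 1 at an unadjusted p below 0.05, and edgeR and DESeq2 also called 0. Ticam1, which encodes TRIF, had 958 ± 69.0 and 775 ± 103 (log2 difference -0.31, limma adjusted p = 0.174).

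Further down, 11 MAP kinase genes were tested, of which 1 rose and 1 fell, with a median of -0.04. Mapk9, which encodes JNK2, rose from 1800.3 ± 62.1 to 2427 ± 200.5 (0.43, limma adjusted p = 0.0170), and Map2k7, a kinase that activates JNK, fell from 489 ± 64.9 to 315 ± 32.0 (-0.63, limma adjusted p = 0.0342). Among 5 NF-kB subunits Rel fell, from 1098 ± 62.2 to 809 ± 90.7 (-0.45, limma adjusted p = 0.0411), and Rela and Nfkb1 had log2 differences of 0.13 and 0.04. The call of Mapk9 was lost without low replicate 2 or 3 or high replicate 3 (adjusted p up to 0.0796). Map2k7 missed the threshold without those 3 libraries or without high replicate 1 (up to 0.155). Rel held without high replicate 1 and was lost in the other 5 such fits (up to 0.115), and Map2k7 and Rel also with the microglia marker scaling (0.132 and 0.211).

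Of 18 negative regulators 1 fell and none rose, with a median of -0.23. Socs3, a suppressor of cytokine signalling, had 2480.1, 2258 and 2320 normalised reads in low and 1623, 1724 and 1511 in high libraries (log2 fold change -0.54, SE 0.10, limma adjusted p = 0.00503). It passed in all 16 alternative fits. Tnfaip3, the deubiquitinase A20, had 3089 ± 83.8 and 2617 ± 145 (-0.24, limma adjusted p = 0.110), and Nfkbia, the NF-kB inhibitor, 2840 ± 429.7 and 2539 ± 253 (adjusted p = 0.472).

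Among 23 genes that TLR2 or TLR4 ligands induce in macrophages, 16 were tested, 1 rose and 1 fell, with a median of -0.32. An unadjusted p below 0.05 was found for 8 of the 16, and DESeq2 called 4 lower. Sod2, the mitochondrial superoxide dismutase, rose from 875 ± 89.1 to 1288 ± 96.1 (0.56, limma adjusted p = 0.0134). Its call was lost without low replicate 2 or high replicate 3 (adjusted p = 0.0658 and 0.0678). Lcn2, which encodes lipocalin 2 and is also a neutrophil marker, fell from 3044 ± 1244 to 57.5 ± 54.4 (-6.09, limma adjusted p = 7.94e-05). Tnf, a founding cytokine of the response, was at 224 ± 53.4 and 114 ± 41.2 (-1.02, limma adjusted p = 0.0606), Gpr84 at 8399 ± 1525 and 6294 ± 758 (-0.41, adjusted p = 0.0671) and Il1b at 225 ± 85.7 and 279 ± 144 (0.26, adjusted p = 0.693). Immediate early and heat shock genes, which tissue dissociation is known to raise, took 0.451%, 0.642% and 0.595% of reads in low and 0.327%, 0.425% and 0.433% in high libraries, 2 of 14 fell (Jun and Btg2), and their part in the induced genes or the receptors was not tested. Within that list the heat shock gene Hspa1a had 2439, 285 and 193 normalised reads in low and 2147, 263 and 284 in high libraries, so replicate 1 was highest in both groups. Hspa1b had the same order of replicate 1 above the rest, at 3616 and 2806 against 184 to 314, and Fos and Egr1 were lowest in replicate 1 of both groups.

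**Figure D5:**
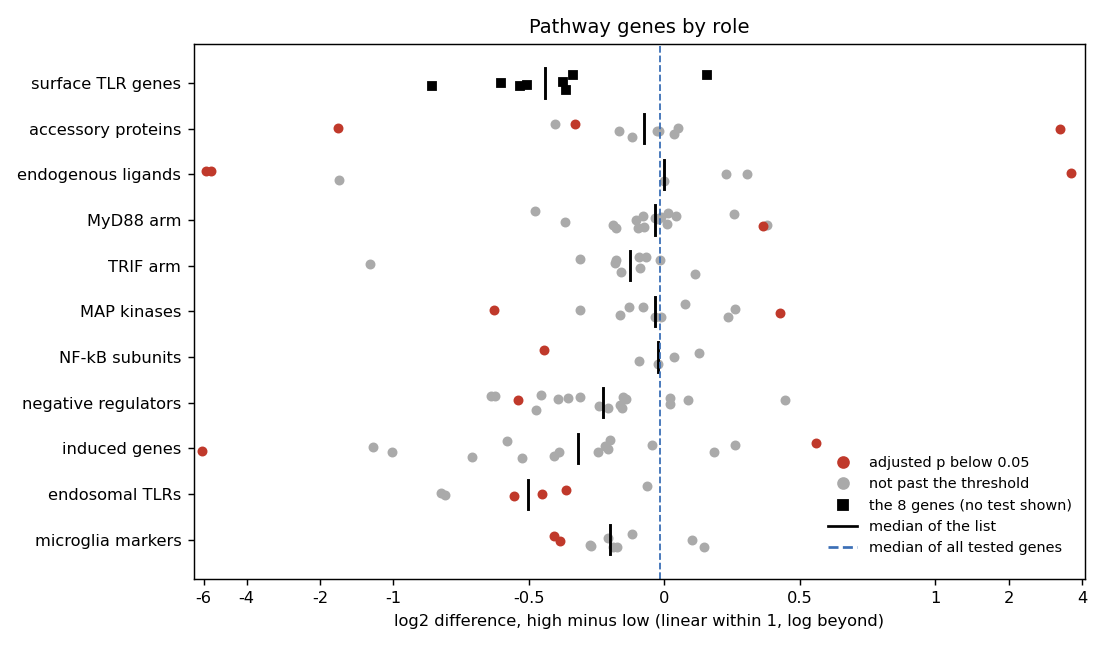
Log2 difference (BODIPY-high minus BODIPY-low, horizontal axis, linear within 1 and logarithmic beyond) of each tested gene by role, with list medians as black bars and the median of all tested genes dashed. Most signalling genes lie near 0, and the largest differences are those of the neutrophil-linked S100a8, S100a9 and Lcn2 on the left and of Lbp and Bgn on the right.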

How the data were processed

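The authors deposited a signal per gene, the read counts divided by 1 size factor per library. FastQC 0.11.4, STAR 2.5.3a and DESeq2 were used, per the submitters' processing notes, and mm10 is named per the labels' design text beside mm9 in the notes. The annotation and strand setting were not given in sources used here. Whole reads were recovered from the deposited values (100% whole at a tolerance of 0.01 read).

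Each gene was tested with limma 3.58.1 in R 4.3.3 (two-sided, trended prior, Benjamini-Hochberg) on log2(value + 1), for 12821 genes with a mean of at least 10. The pseudocount shrinks the folds of low genes. edgeR 4.0.16 and DESeq2 1.42.0 ran on recovered reads as 2 of 16 alternatives. The fit was checked on simulated, unpaired libraries with changes balanced in direction and the same dispersion for every gene. Changes as small as most of those given here were not simulated. GENCODE M21 (GRCm38) gave coordinates and lengths, and 15500 symbols (95.8%) matched 1 gene. Members and lists were chosen with earlier results of these data known. Named genes are the 8 members, every called gene of each pathway list and the 3 genes nearest to Tlr2, Tlr4 and Cd14 (1 of these is not reported here), and genes with values given beside them were picked afterwards.

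Further lists marked other cells. Of 8 monocyte markers 5 fell and 1, Ace, rose. Markers of endothelium, astrocytes, oligodendrocytes and border macrophages took at most 0.0819% of reads, and those of B, T and NK cells at most 0.00293%.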

Additional observations from a re-analysis of the deposited data

How the results depend on the processing

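The sign of the log2 difference of each of the 8 genes was the same under all 16 alternatives, with ranges of -0.57 to -0.33 for Tlr2, -0.41 to -0.16 for Tlr1, -0.71 to -0.43 for Tlr6, -0.69 to -0.35 for Tlr4, -0.40 to -0.19 for Cd14, -0.49 to -0.19 for Ly96, -1.19 to -0.56 for Tlr5 and 0.12 to 0.34 for Myd88. The filters, the robust variance and the replicate block leave these log2 differences unchanged by construction, and the pseudocounts hardly move them. The same sign under those settings is therefore no check of the differences. Genes called over the whole table moved by over 1.5 times with the microglia marker scaling (2015 higher, 155 lower) and under the replicate block (760 lower). Pathway genes called moved to 9 higher and 5 lower with that scaling, to 13 lower with DESeq2 and to 15 lower with the replicate block. The cause was not tested. With 1 library left out, 689 to 1295 genes were called higher and 151 to 523 lower, and 1 to 6 and 5 to 11 pathway genes. The block also called 5 induced genes and 6 microglia markers lower and lost Bgn (adjusted p = 0.0561). The labels do not say whether libraries with equal numbers in their titles share mice, and the main fit used no block. Deviations from the group means, across genes, correlated at 0.111, 0.144 and 0.0728 for equal numbers and between -0.115 and 0.00158 for unequal ones. Each library correlated best with its own number, and Hspa1a and Hspa1b were highest in number 1 of both groups. The correlations are weak. Deviations within a group cancel out for each gene, so the correlations for equal and unequal numbers are not independent. The pattern is a hint of pairing from the data and not from the design. If the numbers do pair the libraries, the main p-values ignore that pairing, and the counts under the replicate block apply. Depth did not limit the 8 genes, the lowest of which, Tlr5, had 1007 recovered reads in a group.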

Other observations

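Tlr11 and Tlr12, receptors that mice carry beside those above, were looked at after their values were seen. Normalised reads of Tlr12 were 3529 ± 477 in low and 2939 ± 581 in high libraries (3 each, ± SD, log2 difference -0.27, limma adjusted p = 0.254), and Tlr11 had 33.8 ± 9.55 and 22.1 ± 6.67 (-0.59, adjusted p = 0.491). Of 9 border macrophage markers, cells that also carry Cd14, 1 was called. Cd163, a haemoglobin scavenger receptor, rose from 62.5 to 175 normalised reads (log2 fold change 1.49, limma adjusted p = 0.00586). The list had a median log2 difference of 0.55, with 3 genes apart in the higher direction and none in the lower. Over all tested genes 18.0% and 13.4% were apart in these directions. The list's summed share of reads overlapped between the groups (0.0602% to 0.0723% and 0.0584% to 0.0819%). Most of that share came from Stab1, at means of 17213 normalised reads in low and 16698 in high libraries. Of the other marker lists, 1 of 8 endothelial genes (Slco1a4) and 2 of 7 astrocyte genes rose, limma called 0 of 5 oligodendrocyte genes (3 at an unadjusted p below 0.05, 1 called higher by edgeR and 2 by DESeq2) and 0 of 2 B cell genes (0 at an unadjusted p below 0.05 and 0 by either other tool), and no T or NK cell marker passed the filter.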
